A study of Mus musculus with 70 samples.

Results

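The transcripts of 10 enzymes and chaperones that modify, fold or crosslink collagen were followed through serial passage of a mouse kidney cancer line in mice. They are the lysyl hydroxylases Plod1, Plod2 and Plod3, the prolyl 4-hydroxylase subunits P4ha1 and P4ha2, the endoplasmic reticulum chaperones Fkbp10 and Rcn3, and the lysyl oxidases Lox, Loxl1 and Loxl2. They were chosen by name, from the role of their proteins, with earlier results of these data known. They are 10 of the 21154 gene symbols with a probe on the array. All 10 were measured, by 16 probes in all, and each gene is described by its brightest probe unless another is named. Fkbp10 and Rcn3 belong to the study's KPT gene signature, Plod2 to its T-LM signature and Loxl2 to its K-LM signature. The study picked those signatures on these samples, so counts that include these 4 genes are not independent evidence of their direction.

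The cells were GFP-RENCA, a VHL wild-type renal adenocarcinoma line of BALB/c mice that carries GFP from a lentiviral vector, and every group shares this background. P0 is the parental culture, with 2 RNA samples, and P1 to P6 are the cells recovered after each of 6 rounds in wild-type, immunocompetent female BALB/c mice injected at 6 weeks of age. KPT cells came from kidney tumours after injection under the kidney capsule (5, 2, 2, 3, 5 and 5 RNA samples from P1 to P6). T-LM cells were seeded through the tail vein and recovered from metastases in the lung (5, 2, 3, 4, 6 and 4 samples), and K-LM cells were seeded in the kidney and also recovered from lung metastases (1, 1, 5, 3, 4 and 3 samples). Each round was seeded with cells of the round before, so all samples descend serially from 1 line and passages are not independent of each other. Tissue was digested and the cells were cultured until GFP-negative cells had died, so a surviving host cell would be measured together with the tumour cells. The labels do not say that every replicate came from its own animal, and p-values measure the spread between these samples.

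Collagen chains are modified in the endoplasmic reticulum before they leave the cell. Prolyl 4-hydroxylase makes the hydroxyproline that keeps the triple helix stable, lysyl hydroxylases make hydroxylysine, and chaperones such as FKBP65 (Fkbp10) and reticulocalbin 3 (Rcn3) assist folding and secretion. Outside the cell, lysyl oxidases oxidise lysine and hydroxylysine so that neighbouring molecules crosslink into stiff fibres. Fibroblasts are the best known makers of fibrillar collagen, and several of these enzymes, P4ha1, P4ha2, Plod2 and Lox among them, are known targets of hypoxia-inducible factor (HIF) in many cell types.

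Promoter sequences were available for 5 members from RefSeq (GRCm38.p6, 250 bases before to 50 bases after the transcript start). Those of Rcn3, Plod3 and P4ha1 are shown because Rcn3 had one of the widest ranges of level among the members, P4ha1 had the narrowest, and Plod3 lay between them. Capitals mark the core of the HIF response element, ACGTG or GCGTG, on either strand (CACGT or CACGC when read on the other strand).
Rcn3, chr7:45092164-45092463, minus strand: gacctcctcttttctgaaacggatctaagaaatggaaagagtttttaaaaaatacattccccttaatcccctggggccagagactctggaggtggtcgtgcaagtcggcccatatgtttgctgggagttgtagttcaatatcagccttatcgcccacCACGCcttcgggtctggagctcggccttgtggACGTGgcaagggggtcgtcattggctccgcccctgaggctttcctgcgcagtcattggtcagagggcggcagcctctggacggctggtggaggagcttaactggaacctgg
Plod3, chr5:136986769-136987068, plus strand: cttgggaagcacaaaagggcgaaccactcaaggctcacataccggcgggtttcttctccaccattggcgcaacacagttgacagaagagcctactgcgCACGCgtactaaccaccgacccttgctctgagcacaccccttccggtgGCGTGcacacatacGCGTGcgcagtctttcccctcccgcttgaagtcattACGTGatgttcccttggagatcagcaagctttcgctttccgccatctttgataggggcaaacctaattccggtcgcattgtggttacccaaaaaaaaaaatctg
P4ha1, chr10:59323046-59323345, plus strand: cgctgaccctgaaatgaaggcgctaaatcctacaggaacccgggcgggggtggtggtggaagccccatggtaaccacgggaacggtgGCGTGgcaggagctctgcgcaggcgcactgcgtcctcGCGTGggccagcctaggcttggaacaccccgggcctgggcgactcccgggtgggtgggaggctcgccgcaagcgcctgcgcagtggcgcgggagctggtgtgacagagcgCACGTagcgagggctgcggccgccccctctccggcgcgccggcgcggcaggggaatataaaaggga
The Rcn3 window held 1 ACGTG and 1 GCGTG core, the Plod3 window 1 and 3, and the P4ha1 window 1 and 2. ACGTG was present in 19.6% of 32851 RefSeq promoters of this length, GCGTG in 32.4% and either of them in 43.8%. ACGTG is also the inner part of the E-box CACGTG, which was present in 7.15% of promoters and in 0 of the 5 member windows. The P4ha2 window held 2 copies of each core and the Plod1 window 2 GCGTG cores. A match says only that these letters are there.

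RNA from 65 samples was hybridised to 70 single-colour Agilent mouse arrays. Levels are log2 signals relative to the 75th percentile of the commonly detected probes on the same array, so a level of 0 is a bright probe and a level near -8 is close to background. The scanner software called 25.1% to 55.1% of the probes on an array well above background. The number of arrays limits the precision. The 5 RNA samples hybridised again (P0 replicates 1 and 2, and replicates 1, 2 and 4 of KPT P6) share a late slide with all 3 K-LM P6 samples, so K-LM P6 is compared through those repeats. On the repeats, the levels of the members moved by -1.46 to 0.77 between hybridisations. The renal epithelial markers Krt18 (4.05 and 4.18) and Pax8 (-4.20 and -3.79) were well above background in both P0 samples. The summed renal epithelial level stayed between 3.56 and 4.64 in all 65 samples, with 3 to 7 of its 8 markers well above background. In P0 the sums were 4.33 and 4.43, with 3 of the 8 markers detected. These sums lay close to Krt18 alone, so a steady sum says little about the dimmer markers.

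The members differed most in how widely they varied. Fkbp10 ranged over 10.97 on the log2 scale across the 65 samples, from -9.05 in KPT P2 replicate 1 to 1.93 in T-LM P5 replicate 1, and Rcn3 ranged over 10.3. Plod2 ranged over 6.28, Loxl1 over 6.01 and Loxl2 over 5.16. The other members moved within narrower limits, 2.91 for Lox, 2.86 for Plod3, 2.70 for P4ha2, 2.32 for Plod1 and 1.93 for P4ha1. Fkbp10, Rcn3 and Plod2 were well above background in 52, 54 and 24 of the 65 samples, Loxl1 in 64 and the other 6 members in all 65.

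**Figure D1:**
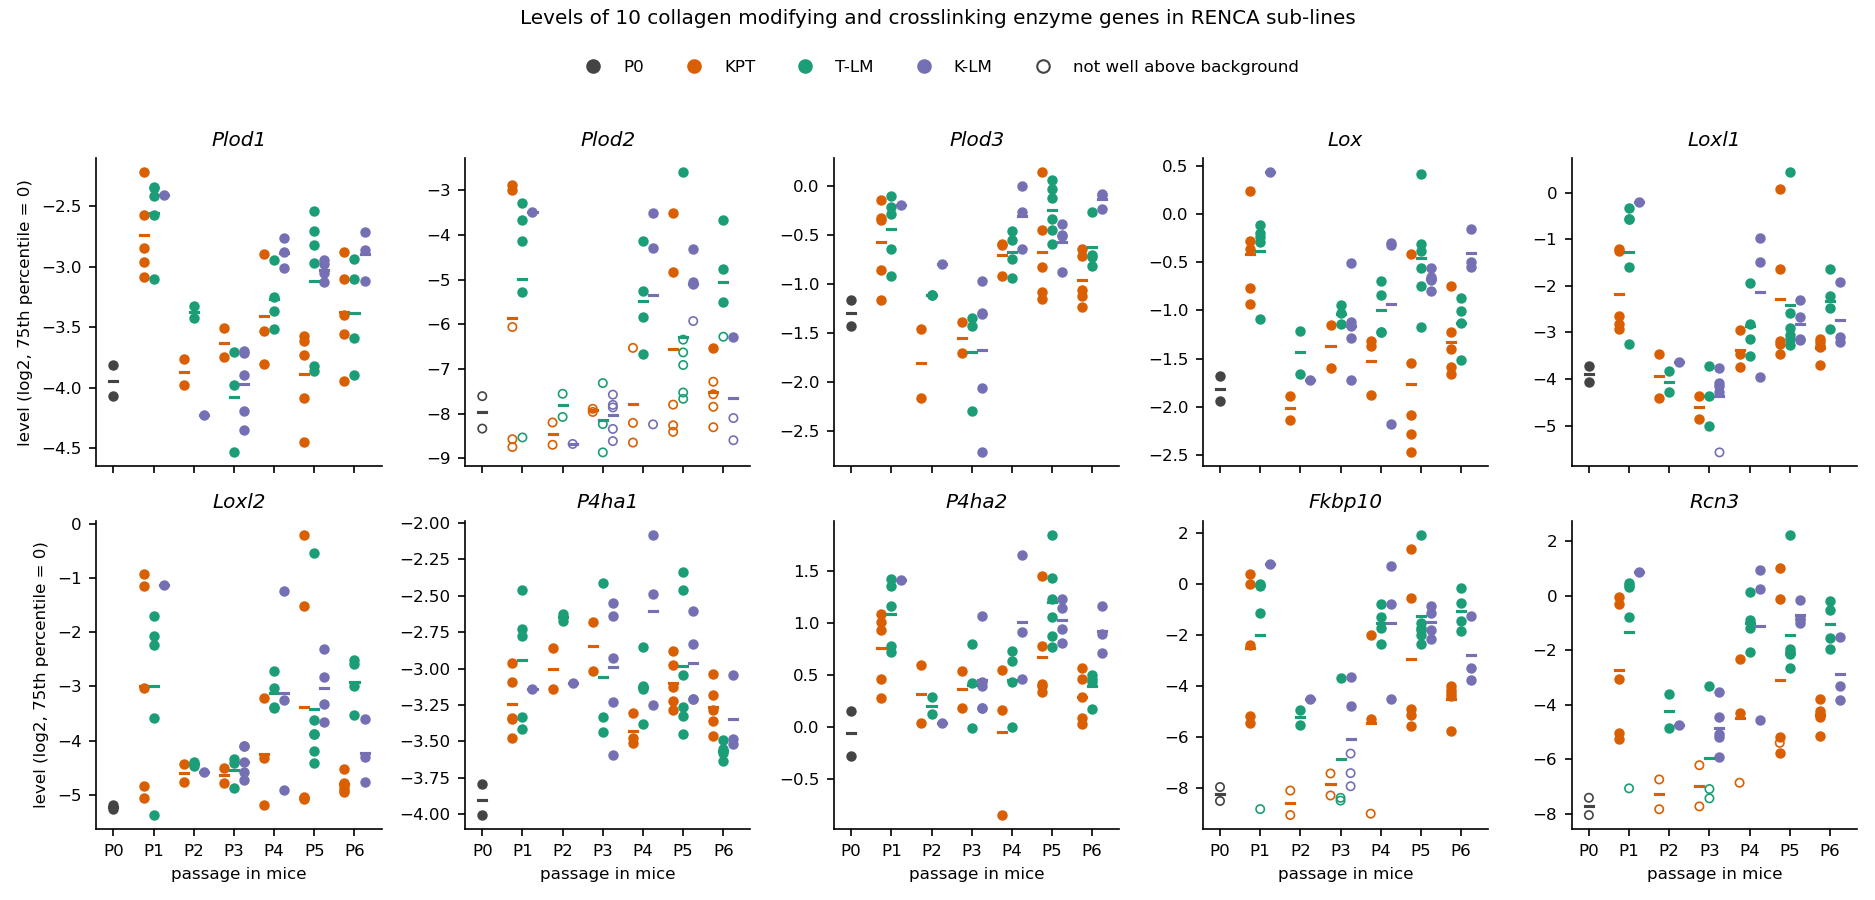
Level of each of the 10 genes (log2 relative to the 75th percentile, vertical axes) in every RNA sample by passage P0 to P6 (horizontal axes), with colours for the route, short lines at group means and open points where the probe was not well above background. Fkbp10 and Rcn3 span over 10 log2 units, from -9.05 to 1.93 for Fkbp10, while P4ha1 stays between -4.01 and -2.08.

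The levels did not follow passage number steadily. Fkbp10, which encodes the chaperone FKBP65, was not well above background in P0 (-8.49 and -7.95), lay at -5.16, -5.45, -2.39, 0.39 and -0.01 in the 5 KPT P1 samples, and was again not above background in KPT P2 (-9.05 and -8.09) and P3 (-7.42 and -8.28). In T-LM it stood at -8.81 in P1 replicate 1 and between -1.14 and 0.00 in the other 4 P1 samples. It then lay at -5.51 and -4.94 in T-LM P2, at -8.48, -8.37 and -3.69 in P3, and between -2.35 and -0.77 in all 4 P4 samples. The single K-LM P1 sample stood at 0.78 and the single P2 sample at -4.51, the 5 P3 samples lay between -7.92 and -3.64, and all 4 P5 samples lay between -2.15 and -0.87. In K-LM P4 the values were -4.50, -0.78 and 0.70, so 1 of the 3 samples lay as low as P2.

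Single samples stood far above their group in several passages. In KPT P5, Fkbp10 was 1.37 and -0.56 in replicates 1 and 2 but -4.91, -5.54 and -5.13 in replicates 3, 4 and 5. Rcn3 was likewise 1.02 and -0.11 against -5.20, -5.77 and -5.40, and Plod2 -3.52 and -4.83 against -8.41, -8.26 and -7.80. Loxl2, a lysyl oxidase family member, stood at -0.21 and -1.52 in the same replicates 1 and 2 and between -5.08 and -5.03 in the others. The same samples were thus high for all 4 of these genes. In T-LM P5, replicate 1 reached 1.93 for Fkbp10 and 2.25 for Rcn3, and the other 5 replicates lay between -2.34 and -1.55 and between -2.65 and -1.95.

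From P0 to P6, the fitted change of every member, by its brightest probe, was above 0 in each of the 3 routes, and the routes differed in how many passed the test. All comparisons used limma, a gene passed at an adjusted p no higher than 0.01, and changes are later minus earlier on the log2 scale with their SE. The 3 comparisons share the P0 samples, so they are given side by side. In KPT, 0 of the 10 members passed in limma, against 3.87% of all 20973 probes called (3.4% higher and 0.467% lower). There 3 members had an unadjusted p under 0.05, beside 18.3% of all probes. In T-LM, Fkbp10 and Rcn3 rose, against 7.31% of 21371 probes called (5.9% higher and 1.41% lower). In K-LM, Fkbp10, Rcn3 and Plod1 rose, against 4.84% of 22312 probes called (3.68% higher and 1.16% lower). The median change of the members was 0.53, 1.13 and 1.1 in KPT, T-LM and K-LM, beside -0.01, 0.00 and 0.00 over all tested probes.

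**Figure D2:**
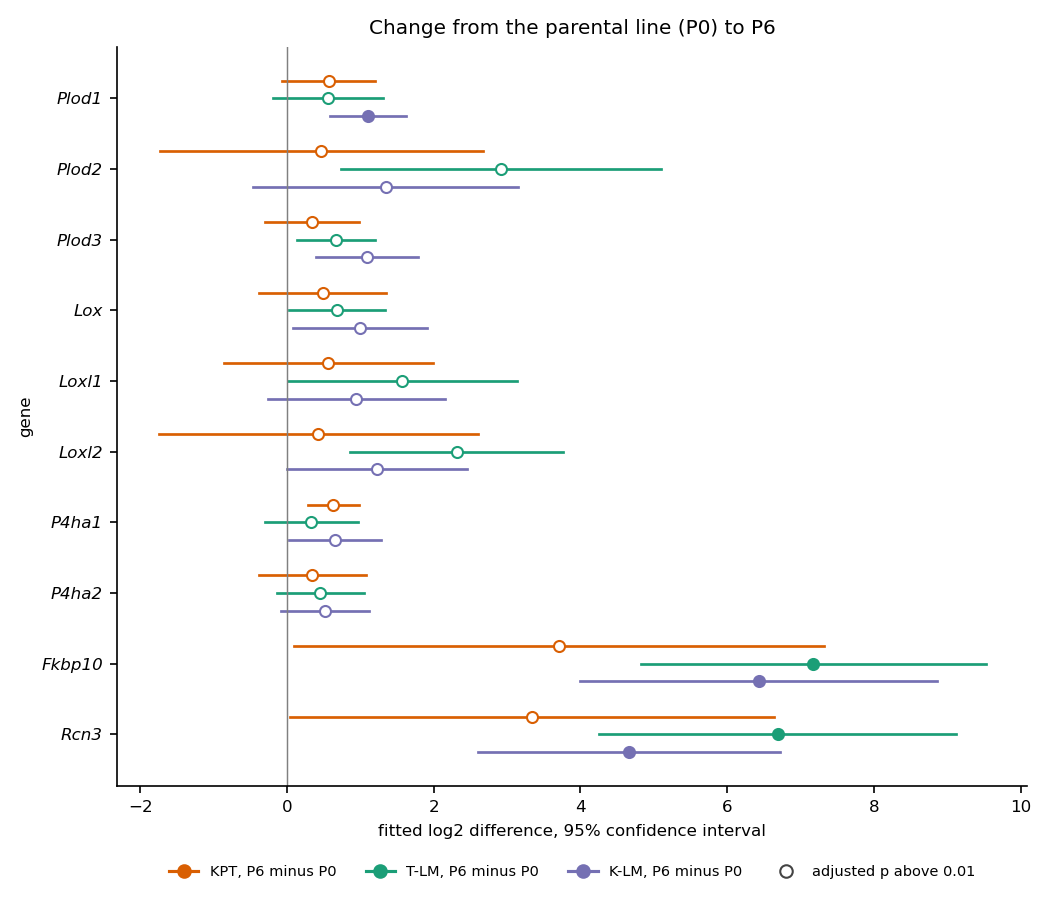
Fitted log2 change of each gene from P0 to P6 (horizontal axis) with its 95% confidence interval as the bar, by route, filled where the adjusted p is 0.01 or less. All 10 genes lie above 0 in each route, and Fkbp10, Rcn3 and Plod2 were not well above background in P0, so the plotted size of their changes depends on signals near background.

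Among the chaperones, Fkbp10 moved from below background in P0 to clear signal in T-LM P6, where it stood at -0.74, -0.16, -1.45 and -1.83. All 4 samples lay above both P0 values. T-LM P6 (mean -1.05 ± 0.74, SD, n = 4) was at least 30.1-fold above P0 (mean -8.22 ± 0.39, n = 2), with an adjusted p of 1.81e-04. Here and below, a fold written as "at least" sets the bright group against the lowest signal that passed background on the arrays of the dim group. With any 1 of the 6 samples left out the adjusted p stayed at 0.00763 or below. In K-LM P6, Fkbp10 was -3.28, -3.76 and -1.25, above both P0 samples on the same slide (-9.96 and -9.21), at least 23-fold (adjusted p = 7.45e-04, means -2.76 ± 1.33 and -9.58 ± 0.53). This call was lost when P0 replicate 1 (adjusted p = 0.0228) or P0 replicate 2 (0.0115) was left out. In KPT P6 the values were -5.75, -4.28, -4.40, -4.17 and -3.99, also above both P0 samples. KPT P6 (mean -4.52 ± 0.70, n = 5) was at least 2.71-fold above P0, with an adjusted p of 0.258 when all KPT passages from P2 on share 1 estimate of the spread. With the 7 compared samples alone the adjusted p was 1.65e-04, and with the late slide alone 0.00322, so the KPT call depends on which samples set the spread.

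Rcn3, a calcium-binding protein of the secretory pathway, followed the same order. It was not well above background in P0 (-8.05 and -7.42) and stood at -0.52, -0.19, -1.54 and -1.95 in T-LM P6, at -3.32, -3.83 and -1.51 in K-LM P6 and between -5.15 and -3.78 in KPT P6. No P6 sample of any route overlapped with P0. T-LM P6 was at least 30.0-fold above P0 (adjusted p = 5.03e-04, means -1.05 ± 0.83 and -7.74 ± 0.45). The T-LM call was lost without P0 replicate 1 (adjusted p = 0.0161). K-LM P6 was at least 20.6-fold above the P0 arrays of the same slide (adjusted p = 0.00322, means -2.88 ± 1.22 and -7.39 ± 0.74). The K-LM call was lost without P0 replicate 1 (0.0701), P0 replicate 2 (0.0207) or K-LM P6 replicate 3 (0.0257). KPT P6 was at least 2.95-fold above P0 (adjusted p = 0.266, means -4.39 ± 0.50 and -7.74 ± 0.45), and the 7 compared samples alone gave an adjusted p of 6.01e-05.

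Within single slides both chaperones were also higher in P6 than in P0. For KPT, Fkbp10 was at least 4.62-fold higher on a slide with 1 array of each group and at least 5.58-fold on the late slide (2 P0 arrays against 3), and Rcn3 at least 3.62-fold and at least 6.4-fold. For T-LM, 1 array against 1 gave at least 31.3-fold for Fkbp10 and at least 36.5-fold for Rcn3. Slides with 1 array of each group give a value and no test.

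Of the lysyl hydroxylases, Plod1 passed in K-LM. Plod1, which acts on lysines of the collagen helix, stood at -3.11, -2.71 and -2.86 in K-LM P6 and, on the same slide, at a mean of -3.93 ± 0.10 in P0. It rose by 1.11 ± 0.25 (adjusted p = 0.00547), while the other Plod1 probe changed by 0.94 ± 0.31 (0.0685) and did not pass. The call was lost without P0 replicate 1 (0.0388), P0 replicate 2 (0.0562), K-LM P6 replicate 2 (0.0294) or K-LM P6 replicate 3 (0.0228). In KPT and T-LM its changes were 0.57 ± 0.30 and 0.56 ± 0.36 (adjusted p = 0.335 and 0.403), and P6 overlapped with P0 in both. Plod3, the member of the family that also glycosylates hydroxylysine, stood at -0.23, -0.08 and -0.09 in K-LM P6, above P0, with a change of 1.09 ± 0.34 (adjusted p = 0.0462). Plod3 passed with the late slide alone (1.12, adjusted p = 6.7e-04) and with the compared groups alone (2.96e-04).

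Plod2, the lysyl hydroxylase of the collagen telopeptides, was dim. It was not well above background in P0 (-8.34 and -7.61), passed background in 3 of 4 T-LM P6 samples (-4.77, -3.67, -5.50 and -6.28), and in 1 of 5 KPT P6 samples and 1 of 3 K-LM P6 samples. T-LM P6 lay above P0 without overlap, at least 1.87-fold (adjusted p = 0.078, means -5.05 ± 1.11 and -7.97 ± 0.51). Plod2 passed in T-LM when T-LM P5 replicate 1, a sample with high fibroblast markers, was left out of the fit (adjusted p = 0.00436).

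The prolyl 4-hydroxylase subunits changed little. P4ha1 was -4.01 and -3.79 in P0, between -3.46 and -3.04 in KPT P6, between -3.63 and -3.49 in T-LM P6 and between -3.52 and -3.04 in K-LM P6. Every P6 sample lay above both P0 samples, by a small margin. The fitted changes were 0.63 ± 0.17 in KPT (adjusted p = 0.0288), 0.33 ± 0.30 in T-LM (0.607) and 0.66 ± 0.30 in K-LM (0.223). The other P4ha1 probe, which was dimmer, gave -0.12 ± 0.22, -0.36 ± 0.37 and 0.50 ± 0.38 (adjusted p = 0.838, 0.654 and 0.535), so its sign differed from that of the brightest probe in KPT and T-LM. P4ha2 was among the brightest members, at 0.16 and -0.28 in P0, and changed by 0.35 ± 0.34, 0.45 ± 0.28 and 0.52 ± 0.29 in the 3 routes (adjusted p = 0.674, 0.385 and 0.347).

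Of the lysyl oxidases, Loxl2 came closest to the threshold in T-LM. Loxl2 stood at -5.26 and -5.19 in P0 and at -2.59, -2.51, -3.00 and -3.53 in T-LM P6, all above P0, a change of 2.31 ± 0.69 (adjusted p = 0.0322). The other Loxl2 probes, 2 and 3, passed. Probe 2 was at least 16-fold above P0 (adjusted p = 9.39e-04) and probe 3 at least 4.13-fold (0.00519), both from below background in P0. Loxl2 by its brightest probe passed when T-LM P5 replicate 1 was left out (9.12e-06) and with the compared groups alone (7.78e-04). In K-LM its change by the brightest probe was 1.23 ± 0.59 (adjusted p = 0.248) and in KPT 0.43 ± 1.03 (0.886). Probe 2 had a mean of -7.29 in P0, -4.44 in KPT P6 and -4.07 in K-LM P6. This probe was well above background in 0 of 2, 5 of 5 and 3 of 3 of these samples. Probe 3 had means of -7.97, -6.34 and -5.90, with 0, 1 and 2 samples well above background. These sizes depend on P0 signals near background, and K-LM P6 was on the late slide. Loxl1 changed by 0.57 ± 0.67, 1.57 ± 0.74 and 0.94 ± 0.58 in KPT, T-LM and K-LM (adjusted p = 0.742, 0.21 and 0.413), and Lox by 0.49 ± 0.41, 0.68 ± 0.31 and 1.00 ± 0.44 (0.599, 0.192 and 0.191). By the brightest probes, P6 lay above P0 without overlap for both genes in T-LM and, on the late slide, in K-LM. The other Lox probe (-2.04 and -1.92 in P0) overlapped with P0 in T-LM P6 (-2.18 to -1.77) and KPT P6 (-2.12 to -1.68). The other Loxl1 probe (-5.96 and -5.21 in P0) did not overlap in T-LM P6 (-5.10 to -3.80) but did in KPT P6 (-5.49 to -5.03). In KPT neither gene overlapped with P0 by its brightest probe on the arrays of the fit, by small margins. There Lox stood between -1.66 and -0.75 in P6 and at -1.94 and -1.68 in P0. Loxl1 stood between -3.71 and -3.13 in P6 and at -4.06 and -3.72 in P0. Both genes did overlap with P0 on the late slide, where Lox stood at -1.22, -0.87 and -1.27 in KPT P6 and at -0.91 and -1.66 in P0.

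From P3 to P6, the comparison used by the study for early against late passage, 3 members rose in T-LM and 2 in K-LM. In KPT, 0 of 10 passed in limma, against 0.677% of all probes called, and 1 had an unadjusted p under 0.05, beside 22.5% of all probes. With the compared groups alone, Loxl1 (adjusted p = 0.00538), Fkbp10 (0.00231) and Rcn3 (0.00568) passed in KPT, against 4.28% of all probes called. In T-LM, Fkbp10 rose from -8.48, -8.37 and -3.69 in P3, by 5.80 ± 0.99 (adjusted p = 5.57e-04), against 7.01% of all probes called. Rcn3 rose from -7.44, -7.10 and -3.30 by 4.90 ± 1.02 (adjusted p = 0.00295). T-LM P3 replicate 5 was well above background for both genes, while replicates 2 and 3 were not, so the fitted sizes depend on signals near background. Plod3 rose by 1.06 ± 0.23 (adjusted p = 0.00336). The Rcn3 and Plod3 calls were lost without T-LM P3 replicate 2 (0.03 and 0.0287). The Rcn3 call was also lost without T-LM P3 replicate 3 (0.0143) or T-LM P6 replicate 1 (0.0104) or 2 (0.0116), and the Plod3 call without T-LM P6 replicate 3 (0.0151). With the compared groups alone, Fkbp10 (0.0126), Rcn3 (0.0145) and Plod3 (0.0489) no longer passed and Loxl2 did (0.00911), against 4.97% of all probes called.

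In K-LM, Plod1 rose from P3 (-4.35 to -3.70 in 5 samples) to P6 by 1.20 ± 0.23 (adjusted p = 0.00261), and Plod3 from -2.72 to -0.97 in P3 by 1.43 ± 0.31 (0.00572), against 3.53% of all probes called. The other Plod1 probe changed by 1.13 ± 0.29 (0.0141) and did not pass. These groups share no slide. Fkbp10, well above background in 2 of 5 K-LM P3 samples, changed by a fitted 3.90 ± 1.08 (adjusted p = 0.0212) and Rcn3, well above background in all 5, by 1.93 ± 0.91 (0.151). An index of RNA quality, the median level of long mRNAs minus that of ribosomal protein mRNAs, differed between these groups too, at -9.62 to -7.45 in P3 and -6.85 to -6.60 in P6. With the index as a covariate, Plod1 (adjusted p = 0.0195) and Plod3 (0.0774) were no longer called, and 0.726% of all probes were. The Plod3 call was lost without K-LM P3 replicate 5 (0.0157) or any of the 3 K-LM P6 samples (0.0212 to 0.0272), and the Plod1 call without K-LM P6 replicate 2 (0.0202) or 3 (0.0135).

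The change from P3 to P6 was also compared between routes. Of the 3 tests of that difference, 0 members passed in limma in each, with 0 at an unadjusted p under 0.05 for KPT against T-LM, 2 for KPT against K-LM and 0 for T-LM against K-LM. Over all probes 0.501%, 0.59% and 1.52% were called in these tests, and 8.89%, 9.62% and 15.1% had an unadjusted p under 0.05. The 2 were Plod1, whose fitted change was greater in K-LM by 0.97 ± 0.41 (adjusted p = 0.383), and Plod3, by 0.83 ± 0.41 (0.509). With the compared groups alone, Loxl2 passed for KPT against T-LM (1.75, adjusted p = 0.00225), beside 1.75 ± 1.12 and an adjusted p of 0.776 in the fit over all passages.

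The first round in mice moved more members by a nominal p than any later comparison with P0. From P0 to P1, 8 of 10 members in KPT and 10 of 10 in T-LM had an unadjusted p under 0.05, all of them higher, beside 27.3% and 25.7% of all probes. After adjustment 0 passed in KPT, against 4.4% of all probes, and Lox passed in T-LM, against 2.57%. The index of RNA quality differed here too, at -7.45 in both P0 samples, -7.21 to -5.94 in KPT P1 and -7.45 to -5.79 in T-LM P1. With the index as a covariate, 0 members passed in KPT (2.14% of all probes called) and 3 in T-LM (3.61%). Lox, the founding lysyl oxidase, stood at -1.68 and -1.94 in P0 and at -1.09, -0.20, -0.12, -0.24 and -0.29 in T-LM P1, a rise of 1.43 ± 0.31 (adjusted p = 0.00665) without overlap. The other Lox probe changed by 0.88 ± 0.26 (0.0386) and did not pass. T-LM P1 replicate 1 was the lowest of the 5, and this sample has a title that names neither route nor replicate and was placed in T-LM by another label. Without it, 8 members passed: Plod1, Plod3, Lox, Loxl1, Loxl2, P4ha2, Fkbp10 (adjusted p = 2.68e-05) and Rcn3 (4.22e-05). The 2.57% belongs to the fit that keeps this sample, so these 8 have no share of all probes beside them. Leaving out T-LM P1 replicate 1 also changed which values overlapped: Fkbp10 in this sample (-8.81) lay below both P0 samples, and in the other 4 all above. Without P0 replicate 1 (0.0518), P0 replicate 2 (0.132) or any of T-LM P1 replicates 2 to 5 (0.0134 to 0.0153) the Lox call was lost.

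In KPT P1 the chaperones and Plod2 were split between samples. Fkbp10 was at least 10.8-fold above P0 (adjusted p = 0.05, means -2.52 ± 2.76 and -8.22 ± 0.39) and Rcn3 at least 9.32-fold (0.0586, means -2.74 ± 2.50 and -7.74 ± 0.45). Plod2 was -2.88 and -3.00 in replicates 4 and 5 but -8.57, -8.75 and -6.06 in replicates 1, 2 and 3. Plod1 changed by 1.21 ± 0.30 (adjusted p = 0.0122), P4ha1 by 0.66 ± 0.17 (0.0159) and Lox by 1.39 ± 0.41 (0.0303). From P1 to P6, all 10 fitted changes were below 0 in KPT, but 3 were above 0 without KPT P1 replicates 4 and 5. In T-LM 3 were above 0, or 5 with the 75th percentile taken over all probes and 1 with the index of RNA quality as a covariate. In both routes 0 passed in limma, against 11.6% and 9.27% of all probes called. At an unadjusted p under 0.05 there were 3 and 4 members, beside 34.1% and 32.6% of all probes. The other probes of Plod1 (-1.03 ± 0.24, adjusted p = 0.00531) and Lox (-0.82 ± 0.21, 0.00936) did fall in T-LM from P1 to P6.

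At P6 the routes differed, with T-LM above KPT for 5 members. Since both routes are set against the same P0, this is also the difference between their P0 to P6 changes. Plod2, Loxl1, Loxl2, Fkbp10 and Rcn3 were higher in T-LM than in KPT, against 11.6% of all 22059 probes called in either direction. For each of the 5, all 4 T-LM samples lay above all 5 KPT samples, and for P4ha1 all 4 lay below. The share of all probes without overlap was not computed, so the lack of overlap does not set the members apart. Rcn3 differed by 3.41 ± 0.42 (adjusted p = 1.18e-05), Fkbp10 by 3.33 ± 0.50 (9.68e-05) and Plod2 by a fitted 2.41 ± 0.49 (0.00154), with 1 of 5 KPT and 3 of 4 T-LM samples well above background for Plod2. Loxl2 stood between -4.94 and -4.51 in KPT and differed by 1.84 ± 0.21 (5.66e-06). Its probes 2 and 3 differed by 2.46 ± 0.33 (2.54e-05) and 2.34 ± 0.40 (3.26e-04). Loxl1 stood between -3.71 and -3.13 in KPT and between -2.94 and -1.65 in T-LM, a difference of 1.03 ± 0.25 (0.00599), while its other probe differed by 1.03 ± 0.28 (0.0141) and did not pass. The calls of Rcn3, Fkbp10, Plod2 and Loxl2 held with each of the 9 samples left out, and that of Loxl1 was lost in 8 of the 9 (adjusted p up to 0.0291), all but T-LM P6 replicate 4. The other 5 members did not pass, and P4ha1 was lower in T-LM by a fitted -0.26 ± 0.11 (adjusted p = 0.129).

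**Figure D3:**
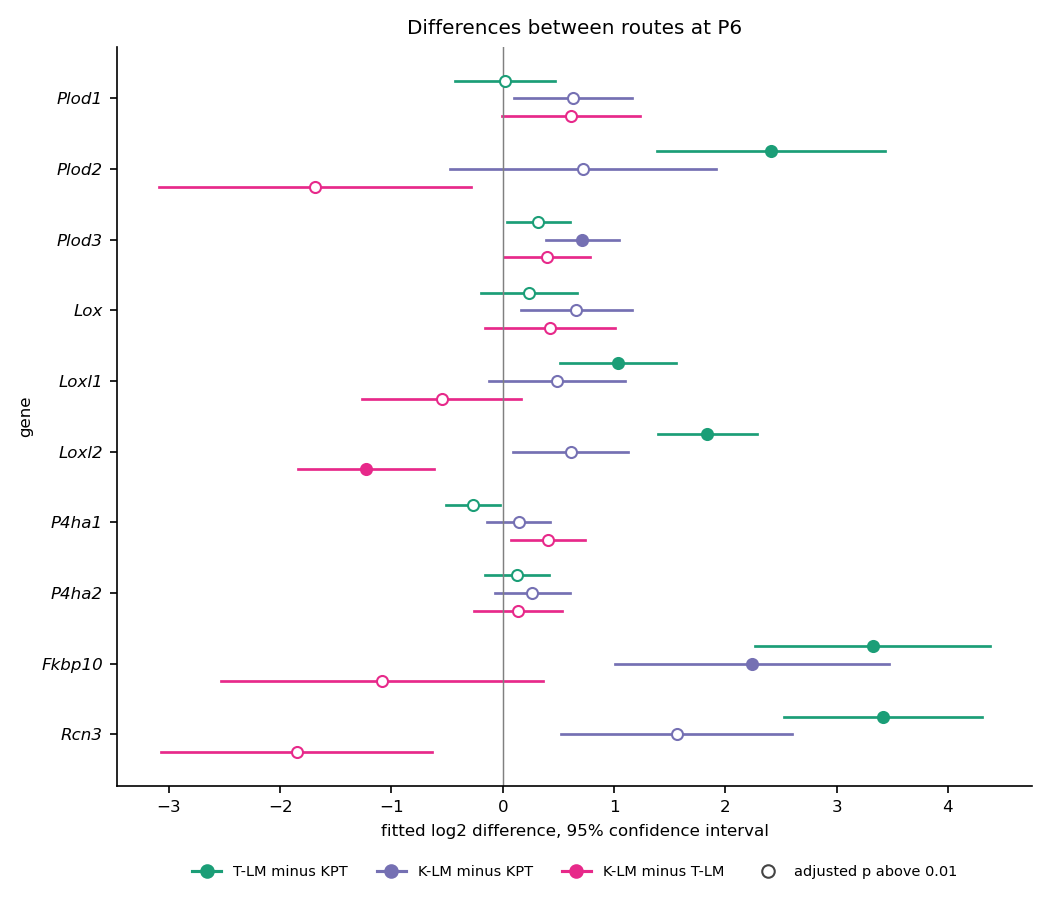
Fitted log2 difference between routes at P6 for each gene (horizontal axis, second route minus first) with its 95% confidence interval as the bar, filled where the adjusted p is 0.01 or less. Rcn3, Fkbp10, Plod2, Loxl2 and Loxl1 lie 1.03 to 3.41 above 0 for T-LM against KPT, and the other 5 genes between -0.26 and 0.32.

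The calls between routes depended on which passages set the spread. In 1 model over all routes and passages, 0 members passed in any of the 3 comparisons at P6. In KPT against T-LM the adjusted p of the 5 ran from 0.105 for Rcn3 to 0.44 for Loxl1. Fewer probes of any kind were called in that model. The shares were 2.6% for KPT against T-LM, 3.84% for KPT against K-LM and 3.07% for T-LM against K-LM. In the reported fit they were 11.6%, 16.1% and 11.9%. Between 1 KPT and 1 T-LM array of the same slide, Fkbp10 differed by 3.92, Rcn3 by 3.21, Plod2 by 2.03, Loxl2 by 1.24 and Loxl1 by 0.77, all higher in T-LM.

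K-LM was above KPT for Plod3 and Fkbp10 at P6. Plod3 was higher in K-LM by 0.71 ± 0.16 (adjusted p = 0.00247) and Fkbp10 by 2.24 ± 0.58 (0.00844), against 16.1% of all probes called. On the late slide, where both groups have 3 arrays, 5 of the 10 members lay higher in K-LM without overlap, these 2 genes among them. The share of all probes without overlap was not computed there either. The Fkbp10 call was lost in 6 of 8 samples left out, with K-LM P6 replicate 3 moving it most (1.48, adjusted p = 0.0658), and on the late slide alone (2.04, 0.0506). It was lost without KPT P6 replicates 1 (0.0261), 2 (0.0131), 3 (0.0123) or 5 (0.0103) and K-LM P6 replicate 1 (0.0148). The Plod3 call was lost without KPT P6 replicate 1 (0.0123) or K-LM P6 replicate 2 (0.0128) or 3 (0.0118). Lox differed by 0.66 ± 0.24 (adjusted p = 0.0476) by its brightest probe, and its other probe was higher in K-LM by 0.88 ± 0.15 (2.56e-04).

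Against T-LM, Loxl2 was lower in K-LM by a fitted -1.23 ± 0.29 (adjusted p = 0.00556), against 11.9% of all probes called. Its probe 2 gave -1.98 ± 0.45 (0.0041) and its probe 3 -1.49 ± 0.55 (0.0608), which did not pass. K-LM P6 and T-LM P6 share no slide. The Loxl2 call was lost without T-LM P6 replicate 1 (0.0157) or 2 (0.0144) or K-LM P6 replicate 1 (0.0219) or 2 (0.0315). Fkbp10 (-1.09 ± 0.69, adjusted p = 0.282), Rcn3 (-1.85 ± 0.58, 0.0292) and Plod2 (-1.69 ± 0.67, 0.0798) did not pass. Rcn3 and Plod2 passed without the term for the late slide (0.00689 and 0.00402). The other Lox probe was higher in K-LM than in T-LM by 0.89 ± 0.17 (0.00125), while the brightest Lox probe differed by 0.42 ± 0.28 (0.303).

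Markers of fibroblasts moved with these genes. Fibroblasts make collagen themselves, and Col1a1, Col1a2 and Col3a1 are among the 11 markers of the list (with Pdgfra, Pdgfrb, Dcn, Lum, Thy1, Fap, Postn and Acta2). The summed level of the list was -3.91 and -4.11 in P0, where 0 of 11 markers were well above background (5 and 2 on the late slide). It was 0.30 to 1.13 in KPT P6 with 6 to 9 markers detected, 1.94 to 3.96 in T-LM P6 with 9 to 11, and 0.48 to 2.21 in K-LM P6 with 8 to 10. From P0 to P6, fibroblast markers that passed numbered 3 of 10 tested in KPT, 7 of 11 for T-LM and 6 of 11 for K-LM, all higher, beside 3.87%, 7.31% and 4.84% of all probes called. At P6, 7 of 11 were higher in T-LM than in KPT, beside 11.6%. Fap and Pdgfra were not above background in any KPT P6 sample, and Fap was detected in all 4 T-LM P6 samples. The part of the fibroblast markers in the changes of the members was not tested. In bulk RNA, fewer cells of a type and less RNA per cell cannot be told apart.

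**Figure D4:**
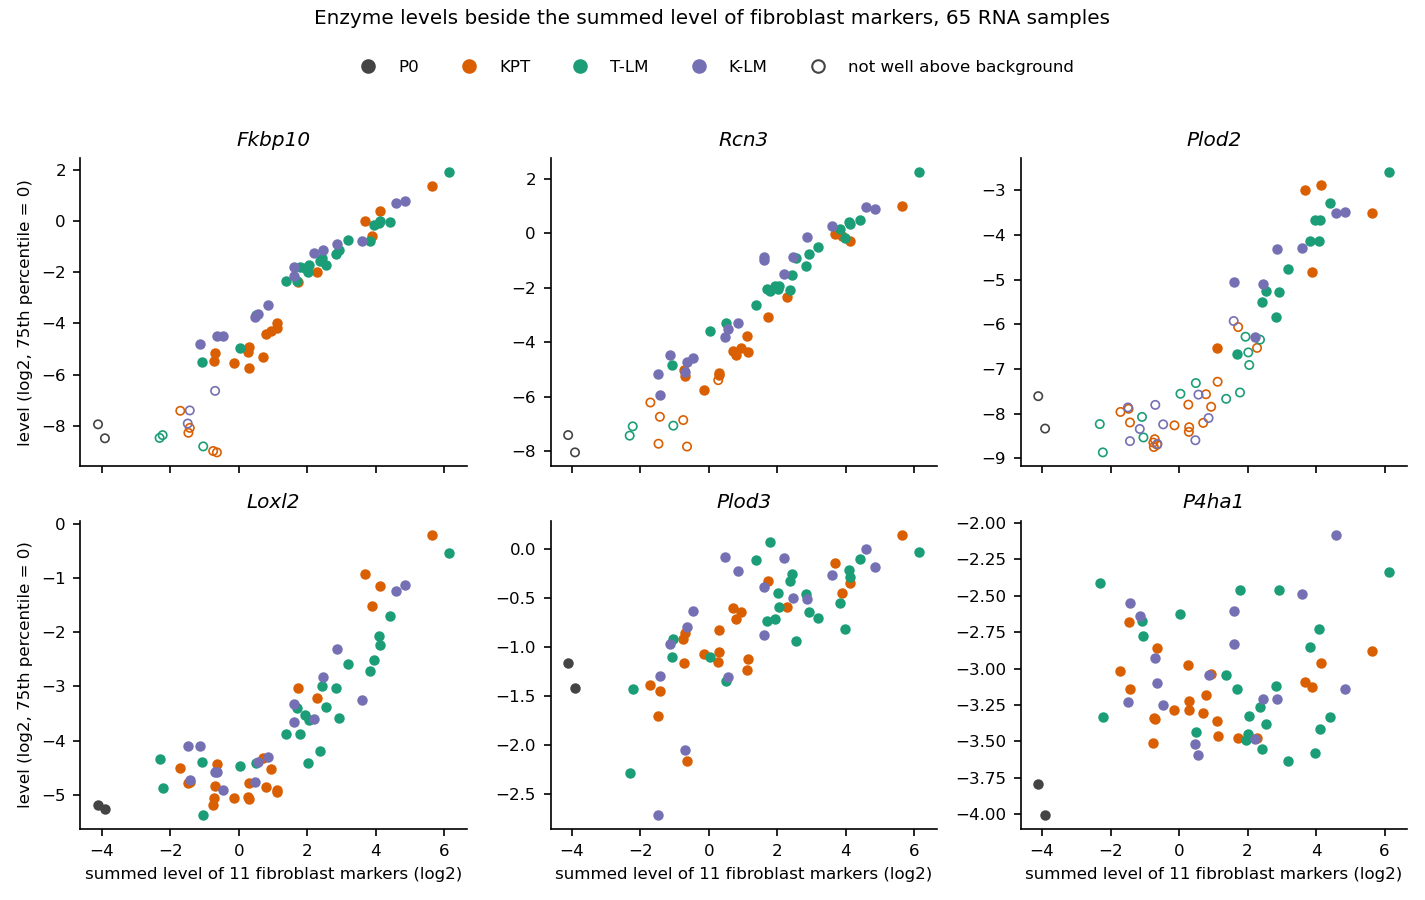
Level of 6 of the genes (vertical axes) against the summed level of 11 fibroblast markers (horizontal axes, log2) in the 65 RNA samples, coloured by route, open where not well above background. Fkbp10 and Rcn3 climb with the marker sum from P0, at -4.11 and -3.91, to T-LM P5 replicate 1, at 6.14, and P4ha1 shows no such climb, with a correlation of 0.18.

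Marker sums also varied within groups. The sum was 5.63 and 3.88 in KPT P5 replicates 1 and 2 against -0.13 to 0.29 in replicates 3 to 5, and 6.14 in T-LM P5 replicate 1 against 1.38 to 2.36 in the others. In T-LM P1 it was -1.04 in replicate 1 and 2.91 to 4.42 in the others, and in KPT P1 4.13 and 3.68 in replicates 4 and 5 against -0.73 to 1.73 in the others. In these 6 samples Fkbp10, Rcn3 and Plod2 stood apart from the rest of their groups as well. Over all 65 samples the Pearson correlation with the marker sum was 0.95 for Rcn3, 0.94 for Fkbp10, 0.89 for Plod2, 0.87 for Loxl1 and Loxl2, 0.73 for Plod3, 0.64 for Lox and P4ha2, 0.53 for Plod1 and 0.18 for P4ha1. Within KPT (22 samples), T-LM (24) and K-LM (17) it was 0.96, 0.98 and 0.97 for Rcn3 and 0.08, -0.15 and 0.21 for P4ha1. These values describe serially related samples that share slides and a starting line.

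Markers of other cell types were also measured. The summed leukocyte level lay between 1.16 and 3.31 in all samples, with 1.52 and 1.19 in P0, where 3 or 4 of 9 markers were detected. Bright markers set this sum, so it says little about the dimmer ones. From P0 to P6 in T-LM, 3 of 9 leukocyte markers rose in limma, beside 7.31% of all probes called, with a median change of 1.68. In KPT 0 of 9 and in K-LM 0 of 8 passed, with 2 and 0 at an unadjusted p under 0.05. At P6, 5 of 9 were higher and 1 lower in T-LM than in KPT, beside 11.6% of all probes called. In K-LM against T-LM 6 of 9 were lower and 0 higher, beside 11.9%. The summed lung epithelial level was -5.26 and -5.22 in P0, -4.91 to -4.55 in KPT P6, -4.01 to -3.30 in K-LM P6 and -3.02 to -0.54 in T-LM P6. In T-LM P6 the surfactant gene Sftpc was well above background in all 4 samples (-3.95 to -0.88) but Nkx2-1 in none of the 65 samples. The endothelial marker Pecam1 was not well above background in P0 or P6, and Cdh5 was so in 1 of 4 T-LM P6 and 1 of 3 K-LM P6 samples. The summed level of the 6 endothelial markers was -0.76 and -0.62 in P0, with 1 detected. It was -1.82 to -0.84 in KPT P6, -1.36 to -0.89 in T-LM P6 and -1.33 to -1.11 in K-LM P6, with 1 or 2 detected. From P0 to P6 in limma, 0 of 1 tested passed in KPT and T-LM and 0 of 2 in K-LM. The K-LM changes were 0.51 and 1.82, 1 of them at an unadjusted p under 0.05, beside 20.1% of all probes. The part of these markers in the results was not tested.

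The members formed a group of close patterns and some that stood aside. Over the 19 group means Fkbp10 and Rcn3 correlated at 0.99, Plod2 and Loxl2 at 0.94, and Loxl1 and Loxl2 at 0.89. P4ha1 correlated between -0.03 and 0.36 with the other 9. Over the same means, which share slides and descent from 1 line, the genes of 12885 symbols most like Fkbp10 included Fstl1 and Rcn3 (Pearson 0.99 each), and those most like Rcn3 were Fstl1, Ppic and Maged2 (0.99 each). Those most like Plod2 were Nck2, Hoxb2 and Ckap4 (0.98 each), and those most like Loxl2 were Ssr4, Cbr1 and Fmnl3 (0.96 each).

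**Figure D5:**
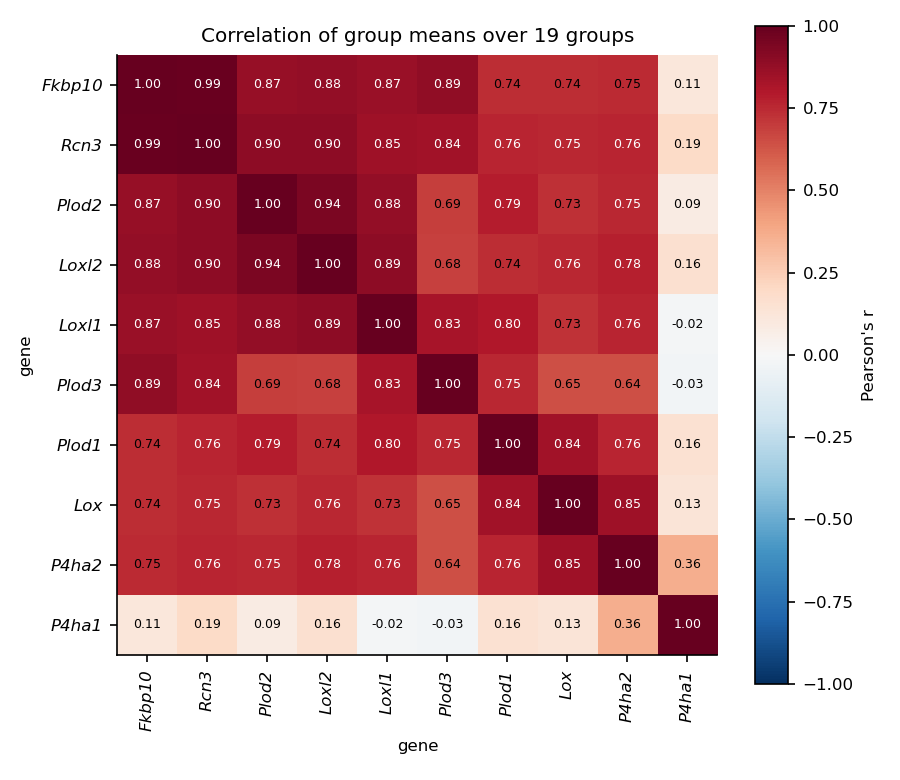
Pearson correlation between the levels of each pair of the 10 genes over the 19 group means, as a colour scale. Fkbp10 and Rcn3 stand at 0.99, and the row of P4ha1 stays between -0.03 and 0.36.

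Other genes of collagen biosynthesis moved in the lung routes in part. Of 28 partner genes (other chaperones, prolyl 3-hydroxylases, procollagen proteinases and their enhancers among them), 24 were tested in KPT and 0 passed in limma from P0 to P6, with 4 at an unadjusted p under 0.05, beside 18.3% of all probes. In T-LM 5 of 24 rose and 0 fell, against 7.31% of all probes called, and the named ones were not well above background in P0. Adamts2, which removes the procollagen N-propeptide, was at least 12.9-fold above P0 (adjusted p = 6.48e-04, means -2.27 and -8.26). P3h4, a partner of lysyl hydroxylase 1, was at least 9.2-fold above P0 (0.00214, means -2.76 and -7.89), and Kdelr3, a receptor that returns proteins to the endoplasmic reticulum, at least 5.95-fold (0.0024, means -3.38 and -8.25). In K-LM 2 of 23 rose, against 4.84% of all probes called. Adamts2 was at least 36-fold above the P0 arrays of the late slide (5.16e-04, means -2.12 and -9.59) and Creb3l1, a transcription factor of collagen-secreting cells, at least 3.12-fold (0.00628, means -5.64 and -8.94). Their medians, 0.05, 0.18 and 0.30 for KPT, T-LM and K-LM, stayed close to those of all probes (-0.01, 0.00 and 0.00). Serpinh1, the collagen chaperone HSP47, had changes of -0.99 ± 0.28 in T-LM and -0.84 ± 0.25 in K-LM (adjusted p = 0.0219 and 0.0352), and was named after its values were seen. Kdelr3 belongs to the study's T-LM signature.

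The collagen chains that these enzymes act on rose in part as well. Of 10 collagen genes, 1 of 9 tested passed from P0 to P6 in KPT, 6 of 10 for T-LM and 4 of 9 for K-LM, all higher, beside 3.87%, 7.31% and 4.84% of all probes called. The one in KPT was Col6a1, at least 6-fold above P0 (adjusted p = 0.00523, means -3.37 and -7.85), which belongs to the study's KPT and K-LM signatures. In T-LM, Col1a1, a chain of fibrillar type I collagen, was not well above background in P0 and at least 53-fold higher in P6 (2.91e-04, means -0.23 and -7.78). In K-LM Col1a2, its partner chain, rose by 6.12 ± 0.93 (1.01e-04) and was well above background on both P0 arrays of the late slide. At P6, 7 of 10 collagen genes were higher in T-LM than in KPT, beside 11.6% of all probes called. Col1a1, Col1a2 and Col3a1 are also fibroblast markers of the list above.

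The listed HIF targets were also measured. Of 12 targets, 1 of 11 tested passed from P0 to P6 in KPT, 2 of 12 for T-LM and 0 of 12 for K-LM by limma, beside 3.87%, 7.31% and 4.84% of all probes called. In K-LM 4 targets had an unadjusted p under 0.05, beside 20.1% of all probes, and the medians were -0.11, 0.12 and 0.48. Car9, carbonic anhydrase 9, was not well above background in P0 and at least 3.78-fold higher in KPT P6 (adjusted p = 8.05e-05, means -4.04 and -7.28) and at least 5.33-fold higher in T-LM P6 (1.08e-06, means -3.54 and -7.28). In K-LM it changed by a fitted 2.35 ± 0.62 (0.0176), with 1 of 2 late-slide P0 arrays well above background. Egln3, a HIF prolyl hydroxylase, was at least 3.96-fold above P0 in T-LM (8.82e-04, means -3.97 and -7.68). Pgk1 and Ldha, glycolytic targets, changed by -0.53 to 0.12 over the 3 routes and did not pass. In K-LM against KPT at P6, 5 of 12 targets were higher and 0 lower, beside 16.1% of all probes called in either direction. Among the 5 were Slc2a1 (1.01 ± 0.17, adjusted p = 2.85e-04), Bnip3 (1.08 ± 0.25, 0.00329) and Egln3 (1.89 ± 0.40, 0.00181).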

How the data were processed

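Single-colour Agilent mouse arrays were read from the deposited scanner files, in which the authors give each spot's processed signal as an intensity after background subtraction, with detection calls. The deposited series table holds the authors' log2 values, which matched quantile-normalized log2 raw median signals to within 0.107 and were used as an alternative. Control spots were left out, spots of a probe were averaged, and log2 signals were centred on each array's 75th percentile over 11280 probes well above background on all 70 arrays.

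Groups were compared with limma 3.58.1 (statmod 1.5.0, R 4.3.3) after testing on simulated data, over probes that 2 or more arrays of a fit detected well above background, with Benjamini-Hochberg adjustment over all of them. Each route was fitted over P0 and P2 to P6 (with P1 where P1 was compared), and P6 over its 3 routes. Fits with K-LM P6 had a term for the late slide and RNA sample as a random block. Each gene is given by its brightest probe unless another is named. All 10 members were tested in every comparison, but not every member is named in each. Partner genes are named by their 3 largest called changes. Members and lists were chosen with earlier results of these data known. Alternatives covered scaling, background correction, filters, slides, pooling of passages, RNA quality and omission of each sample. The normexp alternative used median rather than the planned mean signals. Depth on an array is signal over background, and precision is limited by how many arrays there are. One gene that the naming rule for like patterns selects is not reported here.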

Additional observations from a re-analysis of the deposited data

Results flagged for a closer look

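Single samples stood apart within groups of 4 to 10 by Dixon's test in 12 of 90 gene and group combinations, and chance alone gives about 1 in 20. In T-LM P5, replicate 1 was high for Plod2 (-2.59, next -6.34), Loxl1 (0.44, next -2.59), Loxl2 (-0.55, next -3.62), Fkbp10 (1.93, next -1.55) and Rcn3 (2.25, next -1.95). In T-LM P1, replicate 1, whose title names neither route nor replicate, was low for Lox (-1.09, next -0.29), Fkbp10 (-8.81, next -1.14) and Rcn3 (-7.07, next -0.76). The other 4 were Loxl1 in K-LM P3 replicate 4 (-5.57, next -4.28), P4ha2 in K-LM P3 replicate 1 (1.07, next 0.43), Fkbp10 in KPT P6 replicate 1 (-5.75, next -4.40) and Rcn3 in K-LM P5 replicate 5 (-0.13, next -0.86).

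At P6 the routes differed by limma for 8 pairs of gene and comparison, each also a difference between P0 to P6 changes. T-LM exceeded KPT for Plod2 (2.41, adjusted p = 0.00154), Loxl1 (1.03, 0.00599), Loxl2 (1.84, 5.66e-06), Fkbp10 (3.33, 9.68e-05) and Rcn3 (3.41, 1.18e-05). K-LM exceeded KPT for Plod3 (0.71, 0.00247) and Fkbp10 (2.24, 0.00844), and K-LM minus T-LM was -1.23 for Loxl2 (0.00556).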

How the results depend on the processing

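Over the alternatives run, 0 of 370 values for changes called in the reported fit turned their sign, and 111 of 3076 values for changes not called did, 0 of them past the threshold. Of the settings that leave out no single sample, 1909 single-gene values kept their side of the threshold, 70 lost it and 57 gained it, and with 1 sample left out 1351 kept it, 49 lost it and 10 gained it. The cause of these moves was not tested. Below, counts are members called, in the order named, with the share of all probes called in the same fit in brackets. The shares of the reported fits stand with each comparison above. Fits that leave out named samples are given without a share. On the late slide alone they were 1 for KPT P0 to P6 (8.27%), 5 for K-LM P0 to P6 (14.7%) and 1 for P6 KPT against K-LM (14.2%). With the compared groups alone, chosen after seeing the data, they were 2 for KPT P0 to P6 (7.12%) and 3 for KPT P3 to P6 (4.28%). They were 1 for T-LM P3 to P6 (4.97%), 5 for K-LM P0 to P6 (15%) and 1 for K-LM P3 to P6 (4.28%). They were 0 for T-LM P0 to P1 (0%) and 0 for P6 T-LM against K-LM (10.5%). For the P3 to P6 change of KPT against T-LM the count was 1 (3.07%). Without KPT P5 replicates 1 and 2 and T-LM P5 replicate 1, also chosen after seeing the data, they were 1 for KPT P3 to P6, 4 for T-LM P0 to P6, 6 for T-LM P3 to P6, 2 for KPT P0 to P1, 1 for KPT P1 to P6 and 5 for T-LM P0 to P1. Requiring signal on all arrays of the fit gave 0 for T-LM P0 to P6 (3.38%), 1 for T-LM P3 to P6 (3.09%) and 1 for K-LM P0 to P6 (2.55%). It gave 1 for KPT P0 to P1 (5%) and 2 for T-LM P0 to P1 (2.71%). It gave 2 for P6 KPT against T-LM (7.53%) and 1 for P6 KPT against K-LM (15.9%). With every slide as a term they were 1 for T-LM P0 to P6 (4.73%), T-LM P3 to P6 (5.47%) and KPT P0 to P1 (3.55%). They were also 1 for KPT P1 to P6 (10.9%) and T-LM P1 to P6 (11.3%). They were 0 for K-LM P0 to P6 (3.6%) and for P6 KPT against T-LM (1.61%), KPT against K-LM (4.48%) and T-LM against K-LM (2.54%). With 1 model for all routes and passages they were 0 for K-LM P0 to P6 (3.67%). They were 0 for P6 KPT against T-LM (2.6%), KPT against K-LM (3.84%) and T-LM against K-LM (3.07%). They were 1 for KPT P0 to P1 (3.6%) and 4 for T-LM P0 to P1 (4.58%). Normexp with quantile normalization gave 1 for K-LM P0 to P6 (4.09%) and 2 for P6 T-LM against K-LM (11.8%). The deposited series values gave 1 (4.24%) and 2 (11.8%) for these, and 2 for T-LM P0 to P1 (2.16%). A floor on dim signals gave 1 for K-LM P0 to P6 (3.46%) and 1 for P6 KPT against K-LM (14.9%). No filter gave 1 for K-LM P3 to P6 (0.56%). It gave 0 for T-LM P0 to P1 (0.506%), P6 KPT against K-LM (4.22%) and P6 T-LM against K-LM (2.72%). The RNA quality index as a covariate gave 0 for K-LM P3 to P6 (0.726%), 3 for T-LM P0 to P1 (3.61%) and 1 for T-LM P1 to P6 (7.82%). It gave 1 for P6 KPT against K-LM (19.1%) and 2 for P6 T-LM against K-LM (15.1%). Scaling by the 75th percentile of all probes gave 0 for T-LM P0 to P1 (4.42%). This scaling moved the median of all probes from 0.14 to -0.27 there and from 0.00 to -0.22 for T-LM P0 to P6. No late slide term gave 3 for P6 T-LM against K-LM (19.9%). Same-numbered samples shared only a number, with correlations of -0.57 to 0.53 between their deviations. With the replicate block the counts were 0 for K-LM P3 to P6 (1.26%) and 0 for T-LM P0 to P1 (1.09%). They were 1 for P6 KPT against K-LM (10.3%), 0 for P6 T-LM against K-LM (8.41%) and 2 for K-LM P0 to P6 (3.3%). They were 3 for T-LM P0 to P6 (6.86%) and T-LM P3 to P6 (5%), and 4 for P6 KPT against T-LM (8.76%). With 1 sample left out they ranged from 0 to 3 for K-LM P0 to P6 and K-LM P3 to P6, 1 to 3 for T-LM P3 to P6, 1 to 2 for T-LM P0 to P6, 0 to 8 for T-LM P0 to P1, 0 to 1 for T-LM P1 to P6, 4 to 5 for P6 KPT against T-LM, and 0 to 2 for P6 KPT against K-LM and P6 T-LM against K-LM, and stayed at 0 for the others. Probes near background limit what can be measured for Plod2, Fkbp10 and Rcn3 in P0.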
